A study of Homo sapiens with 6 samples.

Results

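The unfolded protein response and the integrated stress response were read in KYSE450, an established cell line from a human squamous tumor of the esophagus, through 37 genes of a list of 38. A gene was taken where its name in the deposited table equalled a name on the list, and 37 of the table's 27887 rows did so. The name without a row was VIMP, an older name of SELENOS, whose row is given apart from the 37. The 3 mock libraries came from cells of genotype WT that had received a mock virus, and the 3 shHMGB2 libraries from cells in which a virus carrying a short hairpin RNA lowered HMGB2, a chromatin protein that bends DNA. All 6 share the line, the medium with serum, and a viral infection; no source used here says what the mock virus carried. All libraries came from this 1 cell line, and the labels call libraries 2 and 3 of each group repeats and do not name separate cultures; the p-values therefore rest on a spread between libraries that may be technical. The series' design text asks which genes regulate cholesterol metabolism, and the comparison here was shHMGB2 against mock.

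Secretory and membrane proteins fold in the endoplasmic reticulum (ER). When unfolded protein builds up there, the sensors IRE1 (gene ERN1), PERK (EIF2AK3) and ATF6 start the unfolded protein response: IRE1 splices the XBP1 transcript, ATF6 is cut to release a transcription factor, and PERK phosphorylates the initiation factor eIF2 alpha. GCN2 (EIF2AK4) phosphorylates the same site when amino acids run short, and the joint output, called the integrated stress response, slows general translation while the ATF4 transcript is translated more. ATF4 then drives amino acid synthesis and transport, the death-linked factor CHOP (DDIT3) and the feedback phosphatase subunit GADD34 (PPP1R15A). Splicing, cleavage, phosphorylation and translation are not visible in a table of transcript levels per gene.

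The promoter elements of the response are shown first because they mark the ER arm and the ATF4 arm of the response. A match describes the letters in a window, not a bound site, and many of the listed genes are known targets of these factors. A total of 34 of the 38 listed genes had promoter entries in the RefSeq table (GRCh38.p14), and the 250 bases before each listed start were searched on both strands. More than 1 start was listed for 14 of the 34, and a match at any start counted, for members as for all genes. The matches of PDIA6, CEBPG and SLC1A5 lie before a start other than the first listed. The ER stress response element (ERSE, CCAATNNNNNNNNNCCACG), which ATF6 and XBP1 use together with NF-Y, was present in 7 of the 34 genes (20.6%) and in 25 of all 27305 genes in that table (0.0916%). The C/EBP-ATF response element (CARE, TGATGNAAN), through which ATF4 acts with C/EBP partners, was present in 6 of 34 (17.6%) and in 3.87% of all genes. The shorter ERSE-II (ATTGGNCCACG) was in 1 of 34 (2.94%) against 0.0659% of all genes, the cyclic AMP response element CRE (TGACGTCA) in 1 of 34 against 2.03%, and the XBP1 element UPRE (TGACGTGG) in 0 of 34 against 0.78%. Matches of different elements overlapped in 0 genes. The following lines give the ERSE matches of 7 genes on the gene's own strand, with the element in capitals and, for CALR, CRELD2 and the second HSP90B1 match, its reverse complement.
HSPA5, chr9:125241386-125241414, minus strand: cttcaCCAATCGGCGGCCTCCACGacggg
HSP90B1, chr12:103930211-103930239, plus strand: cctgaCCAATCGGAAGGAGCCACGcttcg
HSP90B1, chr12:103930316-103930344, plus strand: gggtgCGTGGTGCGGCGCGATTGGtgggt
CALR, chr19:12938379-12938407, plus strand: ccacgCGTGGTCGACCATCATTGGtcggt
CANX, chr5:179698773-179698801, plus strand: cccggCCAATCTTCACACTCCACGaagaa
CRELD2, chr22:49918549-49918577, plus strand: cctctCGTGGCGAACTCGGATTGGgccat
PDIA6, chr2:10812848-10812876, minus strand: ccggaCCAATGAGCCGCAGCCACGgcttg
XBP1, chr22:28800598-28800626, minus strand: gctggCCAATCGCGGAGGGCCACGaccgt

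The 6 CARE matches, in capitals and reversed in CHAC1 and HERPUD1, and the ERSE-II match of HERPUD1 lie in genes of amino acid supply, signalling and ER-associated degradation. HERPUD1 is the gene that held elements of both arms.
ASNS, chr7:97872458-97872486, minus strand: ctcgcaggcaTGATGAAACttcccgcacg
CHAC1, chr15:40953251-40953279, plus strand: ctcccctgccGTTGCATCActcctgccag
ATF3, chr1:212565206-212565234, plus strand: aaggtcaggaTGATGGAAGgctgtcatat
CEBPG, chr19:33374061-33374089, plus strand: gcgcggcgtcTGATGCAACctgccggcaa
SLC1A5, chr19:46784893-46784921, minus strand: aggaagtggcTGATGCAAGctgtccaggg
HERPUD1, chr16:56931955-56931983, plus strand: gacgcggcggGTTGCATCAgcccgtgccc
HERPUD1, chr16:56932016-56932044, plus strand: cggacgccgATTGGGCCACGttgggagag

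PPP1R15A, the gene with the largest change below, is shown with all 250 bases before its start, plus strand, since it was the 1 gene with the CRE, which is capitalized.
PPP1R15A, chr19:48872171-48872420, plus strand: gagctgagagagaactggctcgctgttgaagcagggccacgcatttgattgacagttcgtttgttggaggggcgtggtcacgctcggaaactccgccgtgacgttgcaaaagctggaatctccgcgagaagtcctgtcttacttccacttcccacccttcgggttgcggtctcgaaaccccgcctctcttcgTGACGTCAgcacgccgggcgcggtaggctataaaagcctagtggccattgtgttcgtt

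Summed FPKM (fragments per kilobase of transcript, scaled to library size) ranged from 740684 to 829437 over the libraries, and profiles correlated at 0.985 to 0.989 within groups and 0.978 to 0.987 between groups (Pearson's r across 13409 genes, which are not independent replicates). Relative depth, estimated from steps in the authors' group values for genes seen in 1 library, spanned 1.88-fold; 72.6% to 84.5% of these values were whole multiples of the step within 0.02. HMGB2 itself had 116, 111 and 109 FPKM in mock replicates 1 to 3 and 22.1, 24.5 and 27.8 FPKM in shHMGB2 replicates 1 to 3, 22.1% of the mock mean (log2 fold change -2.14, SE 0.084, adjusted p = 0.000113 in limma). Squamous markers (9 genes, KRT5 the highest) summed to 8076 to 8478 FPKM in mock and 6940 to 7673 FPKM in shHMGB2, and of the 9, KRT14, KRT6A, SFN and KRT17 fell in limma and 0 rose; 4 had positive log2 fold changes, among them CDH1 with groups apart. Leukocyte markers summed to at most 0.24 FPKM over 3 genes, endothelial markers to at most 0.69 FPKM over 4 genes and fibroblast markers to at most 4.38 FPKM over 5 genes in any library; mock sums were 0 to 0.11, 0.5 and 2.91 to 3.67 FPKM, and shHMGB2 sums 0.13 to 0.24, 0.46 to 0.69 and 3.96 to 4.38 FPKM. Their part in the results was not tested, and in bulk libraries fewer cells of a type and less RNA per cell cannot be told apart.

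Of the 37 stress response genes, CEBPB, PPP1R15A and DDIT4 were lower after HMGB2 knockdown. In limma, fitted on log2(FPKM + 1) for 13409 genes whose mean reached 1 FPKM, and adjusted over all of them by Benjamini-Hochberg (threshold 0.05, 2-sided), 3 fell, 0 rose and 34 did not pass. The 3 (8.11% of 37) were CEBPB (chr20:50190583-50192690), PPP1R15A (chr19:48872421-48876058) and DDIT4 (chr10:72273924-72276036), given with the span of the RefSeq gene on GRCh38. Among all genes tested 3.45% fell and 3.30% rose, 6.75% in all (442 higher and 463 lower; 349 and 571 under median-of-ratios scaling), and nothing particular to the members is read from a count of 3. At an unadjusted p under 0.05, 9 members were lower and 2 higher, beside 11.1% lower and 16.8% higher of all genes. The groups did not overlap for 7 members that were lower and 3 that were higher in shHMGB2, beside 14.0% and 21.6% of all genes. The median log2 fold change over the 37 was -0.054, and 0.035 over all genes tested. Leaving out mock replicate 2 or any 1 shHMGB2 library left 0 members past the threshold. In the fits without mock replicate 2 and shHMGB2 replicates 1, 2 and 3, 6, 7, 6 and 9 members had an unadjusted p under 0.05. These need not be the same genes in each fit. The share of all genes at that p is not given for those fits, so nothing is read from these counts. Over all genes, 323 (2.41%), 310, 288 and 311 passed the adjusted threshold in those fits, against 905 with all libraries.

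**Figure D1:**
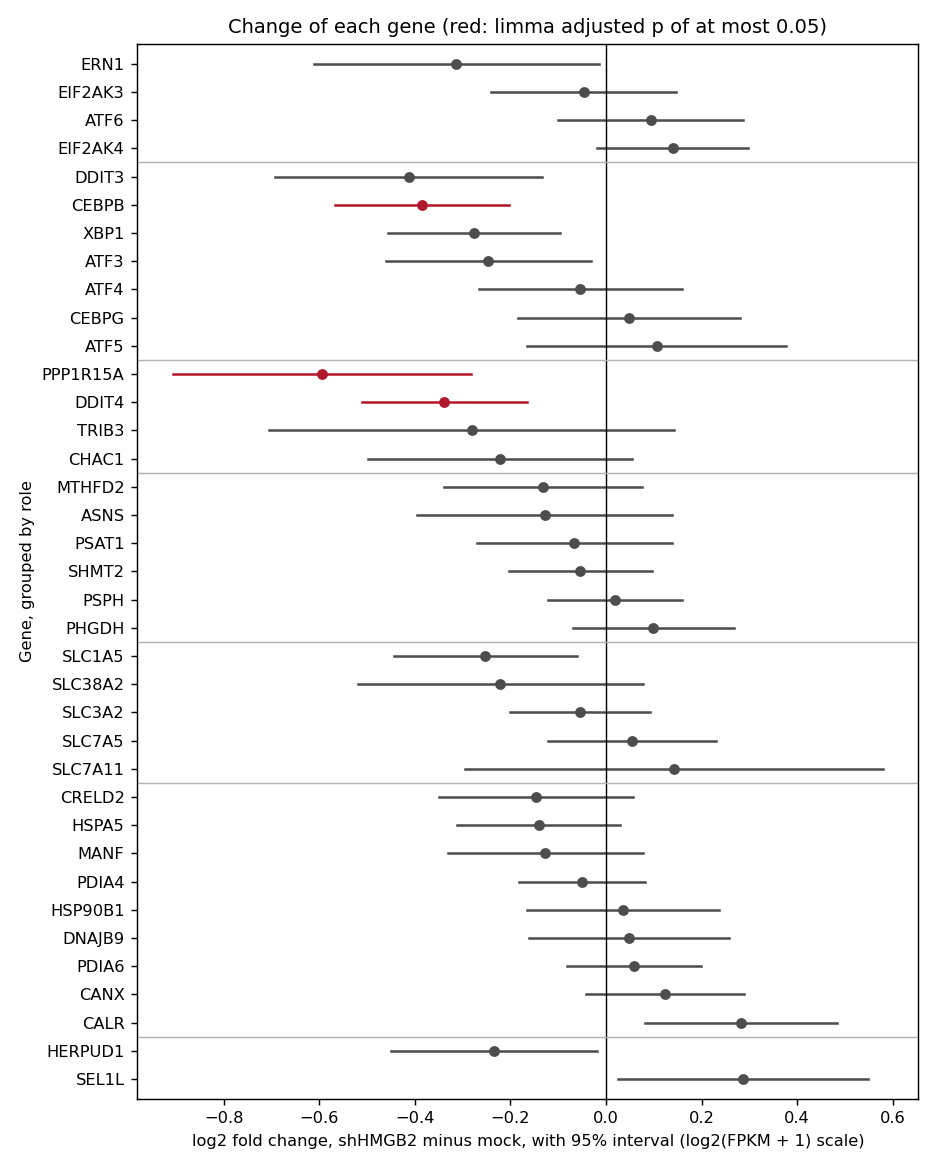
Each row is 1 of the 37 genes, grouped by role; the point is the log2 fold change (shHMGB2 minus mock, log2(FPKM + 1) scale) and the bar its 95% interval from limma. The 3 red genes passed an adjusted p of 0.05, with changes from -0.34 (DDIT4) to -0.59 (PPP1R15A), and most other intervals cross 0.

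Precision differed between genes. Of the 34 members that did not pass, 28 had a 95% interval that lay within 0.5 log2 units of 0 on both sides, and 8 had one within 0.25. The intervals of 6 lay below 0 and those of 2 above 0 before adjustment. The widest reached -0.70 for TRIB3 and 0.58 for SLC7A11, the 2 members with the largest spread between replicates (within-group SD of 0.29 and 0.30 log2 units, against a median of 0.12 over the members and 0.098 over 9312 genes with at least 5 FPKM).

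The 4 stress sensors did not pass the threshold and had mean levels of 2.52 FPKM (ERN1) to 20.5 FPKM (EIF2AK4) over the 6 libraries. ERN1, which encodes IRE1, had the lowest level of all members, with 2.32, 3.50 and 2.91 FPKM in mock replicates 1 to 3 and 2.28, 1.85 and 2.26 FPKM in shHMGB2 replicates 1 to 3. Every shHMGB2 value was below every mock value, by 0.04 FPKM at the closest pair, mock replicate 1 and shHMGB2 replicate 1 (log2 fold change -0.31, 95% interval -0.61 to -0.014, limma adjusted p = 0.163). EIF2AK3, which encodes PERK, had 6.82 ± 0.573 FPKM in mock and 6.57 ± 0.437 FPKM in shHMGB2 (mean ± SD, n = 3 per group) with overlapping groups (log2 fold change -0.046, 95% interval -0.24 to 0.15). ATF6 had 14.5 ± 1.36 FPKM in mock and 15.5 ± 0.882 FPKM in shHMGB2 (SD, n = 3), also overlapping (log2 fold change 0.094, 95% interval -0.10 to 0.29). EIF2AK4, which encodes GCN2, had 18.0, 20.2 and 20.2 FPKM in mock replicates 1 to 3 and 21.9, 22.1 and 20.5 FPKM in shHMGB2 replicates 1 to 3. All shHMGB2 values lay above the mock values there, with mock replicate 2 and shHMGB2 replicate 3 the closest pair (change of 0.14 in log2 units with an SE of 0.068, adjusted p = 0.224 in limma).

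Among the transcription factors, CEBPB fell and ATF4 did not pass. CEBPB encodes C/EBP beta, a bZIP factor that pairs with ATF4 and also serves inflammatory genes. It had 107, 112 and 93.8 FPKM in mock replicates 1 to 3 and 83.7, 75.8 and 78.3 FPKM in shHMGB2 replicates 1 to 3. Groups did not overlap, and the mean went from 104 ± 9.16 FPKM in mock to 79.3 ± 4.02 FPKM in shHMGB2 (SD, n = 3), 76.2% of mock (change of -0.38 in log2 units with an SE of 0.078, adjusted p = 0.0320 in limma). It passed without mock replicate 3 (0.0199) and with no other single library left out (adjusted p from 0.0683 to 0.121 in limma), nor with no filter on low values (0.0862). CEBPG, a dimerization partner of ATF4, had 31.6 ± 4.11 FPKM in mock and 32.6 ± 2.19 FPKM in shHMGB2 (SD, n = 3; log2 fold change 0.048, 95% interval -0.18 to 0.28).

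ATF4, the central factor of the integrated stress response, had the highest level of all 37 genes, above 98.8% of the genes tested. Its values were 722, 766 and 648 FPKM in mock replicates 1 to 3 and 677, 629.8 and 751 FPKM in shHMGB2 replicates 1 to 3. The groups overlapped widely, and the log2 fold change was -0.053 (95% interval -0.27 to 0.16, limma adjusted p = 0.728).

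DDIT3, which encodes the death-linked factor CHOP, had 118, 148 and 104 FPKM in mock replicates 1 to 3 and 87.3, 92.6 and 94.5 FPKM in shHMGB2 replicates 1 to 3. Every shHMGB2 library lay below every mock library, yet the mock values spread over 43.7 FPKM and the change missed the threshold (change of -0.41 in log2 units with an SE of 0.12, adjusted p = 0.0816 in limma; 0.0402 without mock replicate 3). XBP1, the factor that IRE1 activates by splicing, had 145, 165 and 139 FPKM in mock replicates 1 to 3 and 119, 121 and 129.7 FPKM in shHMGB2 replicates 1 to 3. It too was lower in all shHMGB2 libraries without passing (log2 fold change -0.28, SE 0.077, limma adjusted p = 0.0746). ATF3, a stress-induced repressor and activator, had 28.5 ± 2.91 FPKM in mock and 23.8 ± 1.99 FPKM in shHMGB2 (SD, n = 3), with mock replicate 1 (25.6 FPKM) under shHMGB2 replicate 3 (26.1 FPKM) and a limma adjusted p of 0.135. ATF5, a factor tied to mitochondrial stress, had 10.5 ± 1.17 FPKM in mock and 11.4 ± 1.63 FPKM in shHMGB2 (SD, n = 3) and an adjusted p of 0.579 in limma.

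The downstream effectors included both other genes that fell. PPP1R15A encodes GADD34, which brings a phosphatase to eIF2 alpha and ends the response. It had 70.8, 92.9 and 69.6 FPKM in mock replicates 1 to 3 and 48.3, 45.9 and 58.8 FPKM in shHMGB2 replicates 1 to 3. Groups were apart, mock replicate 2 stood highest, and the mean went from 77.8 ± 13.1 FPKM in mock to 51.0 ± 6.89 FPKM in shHMGB2 (SD, n = 3), 65.6% of mock (change of -0.59 in log2 units with an SE of 0.13, adjusted p = 0.0434 in limma). This was the largest change among the 37 genes. It passed without mock replicate 3 (0.0488) and with no other library left out (limma adjusted p from 0.0544 to 0.141); without mock replicate 2 the log2 fold change was -0.46 (adjusted p = 0.101 in limma). Nor did it pass with no filter on low values (0.126) or without the mean-variance trend (0.0536). PPP1R15B, the constitutive partner of the same phosphatase, had 22.6 ± 2.48 FPKM in mock and 22.5 ± 0.828 FPKM in shHMGB2 (SD, n = 3) and a log2 fold change of -0.0024 (95% interval -0.20 to 0.20).

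DDIT4 encodes REDD1, an inhibitor of mTORC1 that ATF4, hypoxia and glucocorticoids are known to induce. It had 645, 753 and 651 FPKM in mock replicates 1 to 3 and 547, 536 and 534 FPKM in shHMGB2 replicates 1 to 3. The shHMGB2 values lay close together and under all mock values, and the mean went from 683 ± 61.0 FPKM in mock to 539 ± 6.85 FPKM in shHMGB2 (SD, n = 3), 78.9% of mock (change of -0.34 in log2 units with an SE of 0.074, adjusted p = 0.0401 in limma). It passed without mock replicate 1 (0.0388) or 3 (0.0492) and not without mock replicate 2 or any 1 shHMGB2 library, where the adjusted p in limma ran from 0.115 to 0.137. With no filter on low values its adjusted p was 0.107, and without the mean-variance trend 0.0516, both in limma.

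TRIB3, a pseudokinase that binds ATF4 and CHOP, had 63.8, 90.7 and 58.6 FPKM in mock replicates 1 to 3 and 60.6, 46.9 and 65.9 FPKM in shHMGB2 replicates 1 to 3. Mock replicate 2 stood at 1.48 times the mean of the other mock libraries, and the groups overlapped (log2 fold change -0.28, 95% interval -0.70 to 0.14, limma adjusted p = 0.346). CHAC1, an enzyme that degrades glutathione, had 77.7, 96.1 and 74.0 FPKM in mock replicates 1 to 3 and 75.9, 61.5 and 74.1 FPKM in shHMGB2 replicates 1 to 3. Its groups overlapped as well (log2 fold change -0.22, 95% interval -0.50 to 0.054, adjusted p = 0.260 in limma).

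**Figure D2:**
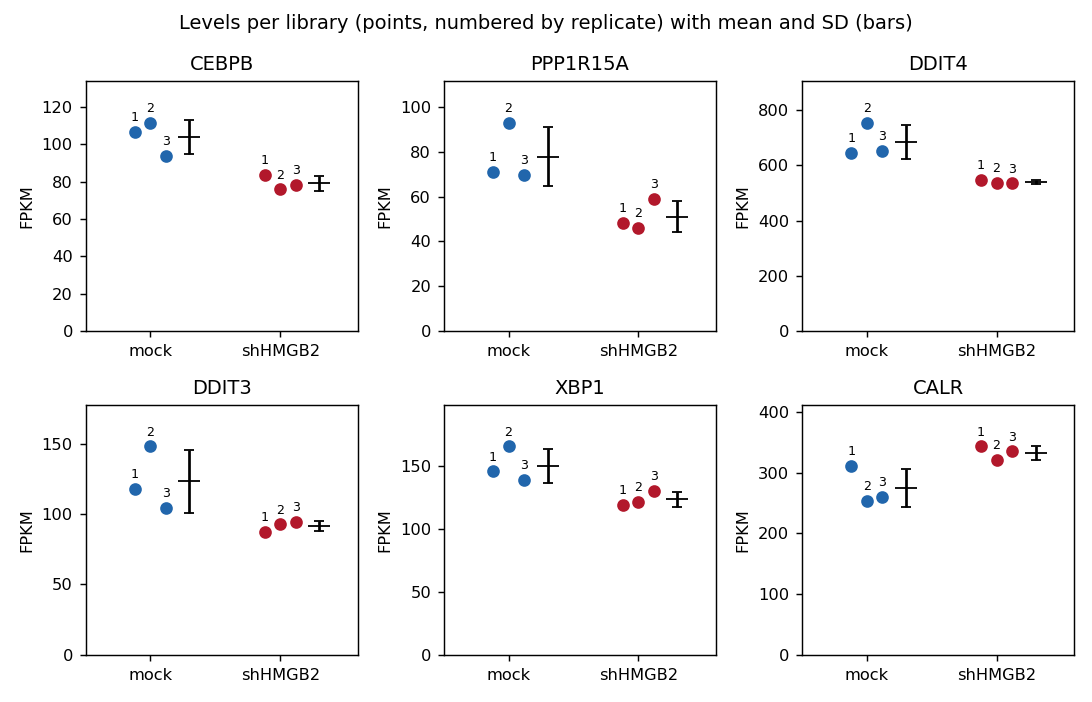
FPKM in each library (points numbered by replicate, axis from 0) with the group mean and SD for the 3 genes that fell (CEBPB, PPP1R15A, DDIT4) and for DDIT3, XBP1 and CALR, which did not pass. In all 6 panels the groups do not overlap; mock replicate 2 is the highest point in all but CALR, where it is the lowest.

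The biosynthetic arm downstream of ATF4 was abundant, and 0 of its 6 genes passed or had groups apart. Of all genes tested, 6.75% passed, and the groups were apart for 14.0% that were lower and 21.6% that were higher in shHMGB2. Nothing particular to this arm is read from a count of 0 among 6 genes. ASNS, asparagine synthetase, had 238, 287 and 225 FPKM in mock replicates 1 to 3 and 215, 211 and 259 FPKM in shHMGB2 replicates 1 to 3. Mock replicate 2 was highest, shHMGB2 replicate 3 exceeded both other mock libraries, and the log2 fold change was -0.13 (95% interval -0.40 to 0.14). The serine synthesis enzymes PHGDH, PSAT1 and PSPH had log2 fold changes of 0.099, -0.066 and 0.019. SHMT2 and MTHFD2, which carry one-carbon units in mitochondria, had -0.054 and -0.13. Mean levels over all 6 libraries ran from 99.3 FPKM for PSPH to 280.2 FPKM for SHMT2, above 92.4% to 97.6% of genes tested. The limma adjusted p in this group were 0.364 to 0.856, and the 95% intervals stayed between -0.40 (ASNS) and 0.27 (PHGDH).

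The 5 amino acid transporters did not pass either, beside 6.75% of all genes that passed. SLC7A5 and SLC3A2, the light and heavy chain of the leucine transporter, had 572, 573 and 556 FPKM against 654, 559.6 and 558 FPKM and 599.9, 580.1 and 535 FPKM against 549.6, 544 and 556 FPKM, mock libraries first. The groups overlapped for both (log2 fold change 0.054, 95% interval -0.12 to 0.23; -0.054, 95% interval -0.20 to 0.092). SLC1A5, a glutamine transporter with a CARE at 1 of its starts, had 142, 154 and 129 FPKM in mock replicates 1 to 3 and 122, 110.0 and 124 FPKM in shHMGB2 replicates 1 to 3. Its groups did not overlap, although the closest values, mock replicate 3 and shHMGB2 replicate 3, were 4.99 FPKM apart (log2 fold change -0.25, SE 0.082, limma adjusted p = 0.105).

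SLC7A11, the cystine transporter, and SLC38A2, which takes up small neutral amino acids, were both low in mock replicate 1. SLC7A11 had 15.9, 26.9 and 27.2 FPKM in mock replicates 1 to 3 and 24.5, 25.2 and 25.8 FPKM in shHMGB2 replicates 1 to 3. SLC38A2 had 127, 177 and 181 FPKM in mock replicates 1 to 3 and 136, 139 and 136 FPKM in shHMGB2 replicates 1 to 3. Without mock replicate 1, SLC38A2 passed (log2 fold change -0.38, limma adjusted p = 0.00911), against -0.22 (0.295) with all libraries; SLC7A11 passed in neither fit.

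The ER arm, the targets of ATF6 and XBP1, held 9 chaperones and folding enzymes, of which 0 passed. At an unadjusted p under 0.05, 1 of the 9 was higher, CALR, beside 16.8% higher and 11.1% lower of all genes. HSPA5, which encodes BiP, the main ER chaperone and the usual readout of ER stress, had 303, 332 and 296 FPKM in mock replicates 1 to 3 and 263, 279.7 and 300.5 FPKM in shHMGB2 replicates 1 to 3. Mock replicate 3 lay under shHMGB2 replicate 3, and the log2 fold change was -0.14 (95% interval -0.31 to 0.030). HSP90B1, the ER paralog of HSP90, had 359 ± 21.1 FPKM in mock and 369 ± 36.7 FPKM in shHMGB2 (SD, n = 3; log2 fold change 0.036, 95% interval -0.17 to 0.24).

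CALR encodes calreticulin, a lectin chaperone for glycoproteins. It had 311, 253 and 259.7 FPKM in mock replicates 1 to 3 and 343, 321 and 335 FPKM in shHMGB2 replicates 1 to 3. All shHMGB2 libraries were above all mock libraries, by 10.1 FPKM at the closest, and the change did not pass (log2 fold change 0.28, SE 0.086, limma adjusted p = 0.0900; 0.0151 without mock replicate 1). Its membrane-bound partner CANX, calnexin, had 138 ± 10.1 FPKM in mock and 149.8 ± 7.04 FPKM in shHMGB2 (SD, n = 3; log2 fold change 0.12); a numbered copy of the CANX row exists in the table, and summing the copies did not make it pass.

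The disulfide isomerases PDIA4 and PDIA6 had log2 fold changes of -0.050 and 0.059, with intervals from -0.18 to 0.20. CRELD2 and MANF, small secreted ER stress proteins, had -0.15 and -0.13, and DNAJB9, a BiP cochaperone that restrains IRE1, 0.048 at 5.47 FPKM, the lowest level of this group. Over the 9 genes 4 log2 fold changes were negative and 5 positive, with a median of 0.036, beside 0.035 over all genes. The 7 genes with an ERSE had log2 fold changes of -0.14 (HSPA5), 0.036 (HSP90B1), 0.28 (CALR), 0.12 (CANX), -0.15 (CRELD2), 0.059 (PDIA6) and -0.28 (XBP1), in both directions and with 0 past the threshold in limma (2 of them, CALR and XBP1, under an unadjusted p of 0.05). Of all genes, 11.1% were lower and 16.8% higher at that unadjusted p.

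Both measured genes of ER-associated degradation, which returns misfolded protein to the cytosol, differed in sign. HERPUD1, a membrane organizer of the degradation complex with CARE and ERSE-II matches, had 47.1, 54.7 and 45.7 FPKM in mock replicates 1 to 3 and 40.8, 38.3 and 45.8 FPKM in shHMGB2 replicates 1 to 3. Mock replicate 3 was under shHMGB2 replicate 3 by 0.07 FPKM (log2 fold change -0.23, SE 0.092, limma adjusted p = 0.153). SEL1L, the scaffold of the HRD1 ligase, had 6.56, 8.62 and 9.15 FPKM in mock replicates 1 to 3 and 9.95, 10.2 and 9.89 FPKM in shHMGB2 replicates 1 to 3. The shHMGB2 values were all above the mock values, the lowest of which was replicate 1 (log2 fold change 0.29, SE 0.11, limma adjusted p = 0.149). SELENOS, the gene once named VIMP, which anchors the extraction ATPase, had 90.8, 94.2 and 83.8 FPKM in mock replicates 1 to 3 and 71.1, 72.0 and 79.5 FPKM in shHMGB2 replicates 1 to 3. It was lower in each shHMGB2 library without passing (log2 fold change -0.27, SE 0.070, limma adjusted p = 0.0631); it passed under median-of-ratios scaling (adjusted p = 0.0496 in limma) and in the authors' deposited table (0.00250).

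**Figure D3:**
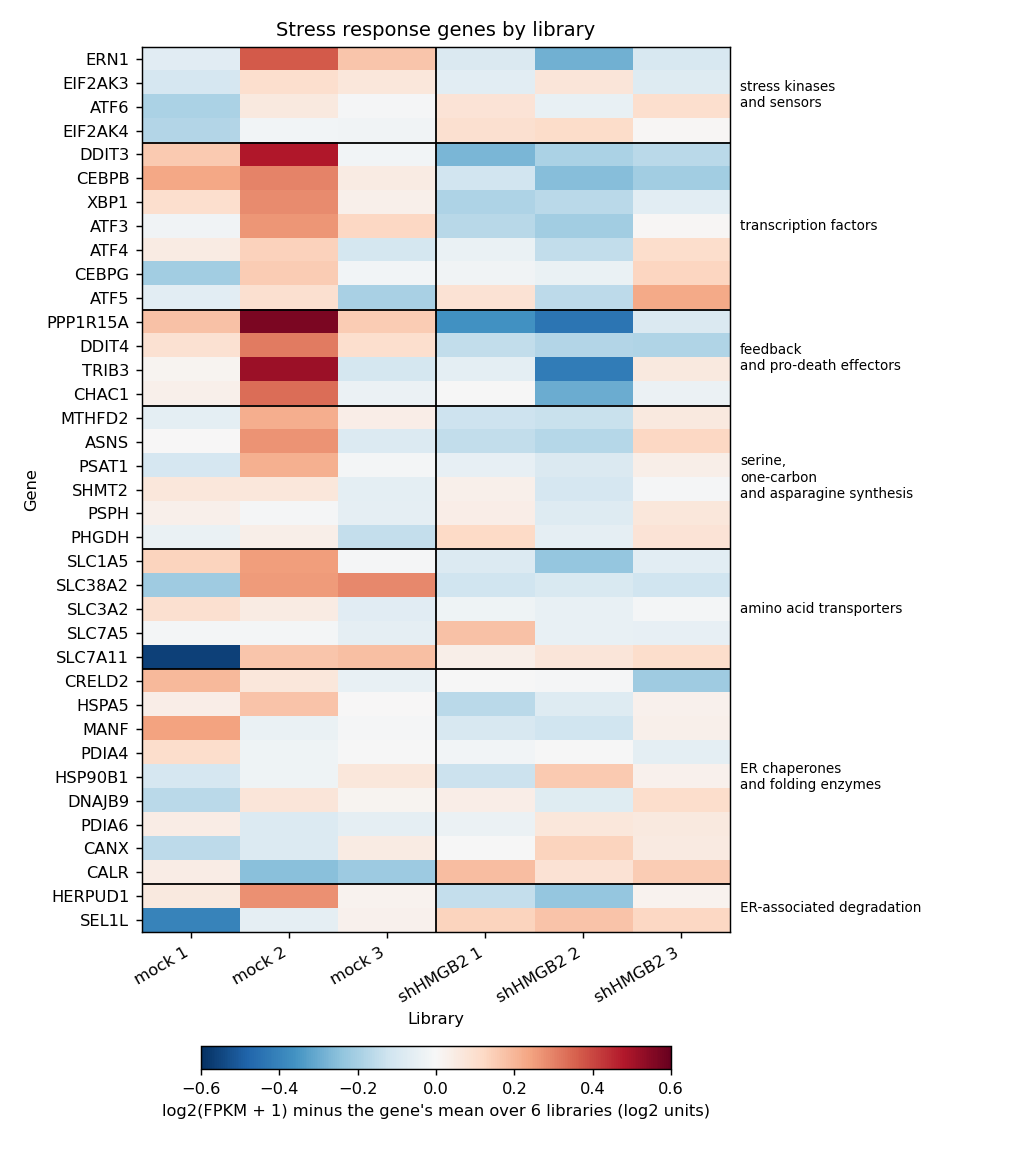
Rows are the 37 genes by role and columns the 6 libraries; color gives log2(FPKM + 1) minus the gene's mean over the libraries. Mock replicate 2 is darkest red for DDIT3, PPP1R15A and TRIB3, and the chaperone rows show no such column; mock replicate 1 is darkest blue for SLC7A11 and SEL1L.

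Mock replicate 2 was the highest mock library for 24 of 37 members (64.9%), beside 27.2% of all genes tested. Its relative depth was 1.23 times that of the shallowest library, the lowest of the mock group. Mock replicate 2 was highest for 4 of 4 sensors, 7 of 7 transcription factors, 4 of 4 effectors, 4 of 6 biosynthetic genes, 2 of 5 transporters, 2 of 9 chaperones and folding enzymes and 1 of 2 genes of ER-associated degradation. The ratio of mock replicate 2 to the mean of the other mock libraries was 1.48 for TRIB3, 1.33 for DDIT3, 1.32 for PPP1R15A, 1.27 for CHAC1 and 1.24 for ASNS. In the shHMGB2 group, replicate 2 was lowest for 22 members (59.5%; 30.5% of all genes) and replicate 3 highest for 20 (54.1%; 29.8% of all genes). By role, shHMGB2 replicate 2 was lowest for 2 of 4 sensors, 5 of 7 transcription factors, 3 of 4 effectors, 6 of 6 biosynthetic genes, 2 of 5 transporters, 3 of 9 chaperones and 1 of 2 degradation genes. Replicate 3 was highest for 1, 6, 2, 4, 3, 3 and 1 of them, in the same order. The members share libraries and known regulators, so these counts describe 6 libraries and carry no test.

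With mock replicate 2 left out, the log2 fold change lay nearer 0 for 24 of the 37 members and farther from 0 for 13. For members with mock replicate 2 as the highest mock library, the log2 fold change rises by construction. No such count was made over all genes. The log2 fold change went from -0.28 to -0.094 for TRIB3, from -0.13 to -0.025 for ASNS, from -0.22 to -0.11 for CHAC1 and from -0.41 to -0.28 for DDIT3. It moved away from 0 for SLC7A11, from 0.14 to 0.26, and for PHGDH, from 0.099 to 0.14. The 3 genes that fell kept their sign and did not pass: PPP1R15A had -0.46, CEBPB -0.33 and DDIT4 -0.27 (limma adjusted p = 0.101, 0.112 and 0.121). The median over the 37 went from -0.054 to -0.033, and from 0.035 to 0.040 over all genes.

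**Figure D4:**
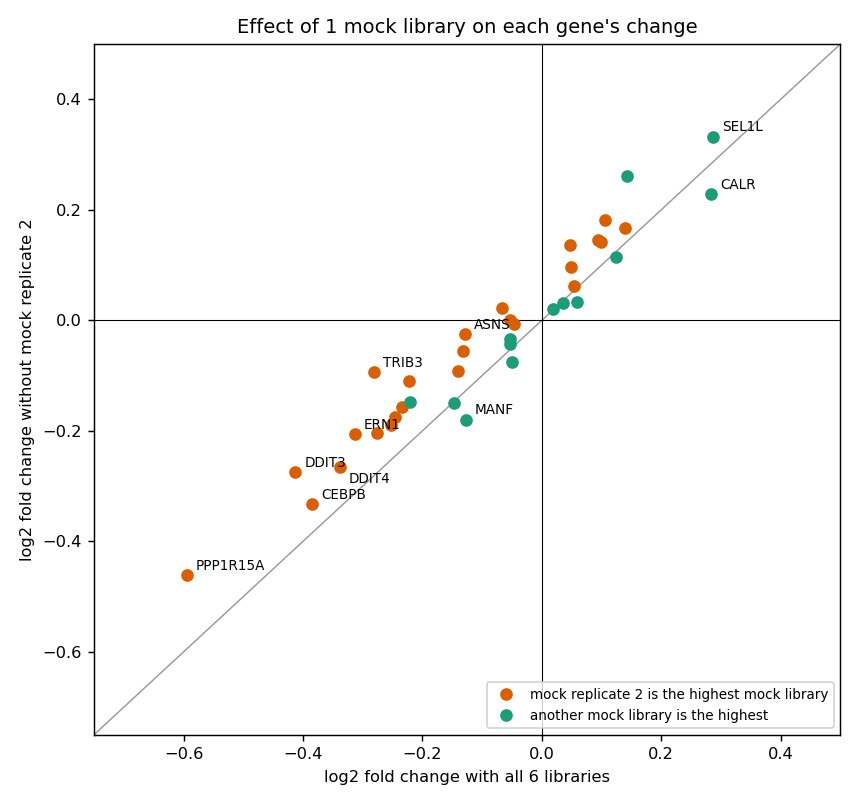
Each point is 1 of the 37 genes, with its log2 fold change from all 6 libraries (x) and without mock replicate 2 (y); the line marks equality. Orange genes are highest in mock replicate 2 among the mock libraries and so lie above the line by construction; TRIB3 is at -0.28 and -0.094.

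Other genes of the pathway came from 8 lists, in which 11 of 168 tested genes (6.55%) passed, a share near the 6.75% of all genes. Of 19 genes of eIF2, its exchange factor eIF2B, its other kinases and phosphatases, 1 rose and 0 fell. The 1 was EIF2AK2, which encodes PKR, an eIF2 alpha kinase that senses double-stranded RNA and is itself induced by interferon. It had 55.4, 62.6 and 66.1 FPKM in mock replicates 1 to 3 and 82.4, 80.6 and 78.5 FPKM in shHMGB2 replicates 1 to 3. All shHMGB2 values were above all mock values (change of 0.39 in log2 units with an SE of 0.073, adjusted p = 0.0252 in limma), and it did not pass without mock replicate 2 or any 1 shHMGB2 library, where the adjusted p in limma ran from 0.0758 to 0.0973. The transcripts of the other 3 kinases of eIF2 alpha, EIF2AK1, EIF2AK3 and EIF2AK4, did not pass.

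Of 16 genes next to the sensors, 1 rose and 0 fell: ATF6B, the paralog of ATF6, went from 23.6 ± 1.11 FPKM in mock to 31.7 ± 1.37 FPKM in shHMGB2 (SD, n = 3; change of 0.41 in log2 units with an SE of 0.062, adjusted p = 0.0116 in limma), while ATF6 itself had 0.094. Whether the 2 paralogs differ in their change was not tested. ATF6B did not pass without mock replicate 2 or shHMGB2 replicate 1 or 2, where the adjusted p in limma ran from 0.0512 to 0.0556. MBTPS1 and MBTPS2, the proteases that cut ATF6, did not pass.

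Of 35 further chaperone, folding and translocation genes, 2 fell and 0 rose. SEC61A1, the channel through which proteins enter the ER, had 101, 98.0 and 102 FPKM in mock replicates 1 to 3 and 81.0, 78.7 and 79.8 FPKM in shHMGB2 replicates 1 to 3 (log2 fold change -0.33, limma adjusted p = 0.0115). TXNDC5, a disulfide isomerase, had 94.4, 91.0 and 90.7 FPKM in mock replicates 1 to 3 and 70.5, 71.7 and 74.9 FPKM in shHMGB2 replicates 1 to 3 (log2 fold change -0.34, limma adjusted p = 0.0117). The groups did not overlap for either. SEC61A1 did not pass without shHMGB2 replicate 2 or 3, with an adjusted p from 0.0593 to 0.0660 in limma, nor TXNDC5 without mock replicate 2 or shHMGB2 replicate 1 or 2 (from 0.0506 to 0.0651). In this list 10 of 35 genes (28.6%) had all shHMGB2 values under all mock values, beside 14.0% of all genes. That share was the highest of the 8 lists, and the others ran from 6.25% to 21.7%. In the same list 3 genes had all shHMGB2 values above all mock values, beside 21.6% of all genes. Its median log2 fold change was -1.64e-06, with 18 negative and 17 positive.

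Of 23 further genes of ER-associated degradation, 2 fell and 0 rose. RNF5, a ubiquitin ligase of the ER membrane, had 10.4, 9.49 and 9.49 FPKM in mock replicates 1 to 3 and 6.64, 6.56 and 6.57 FPKM in shHMGB2 replicates 1 to 3 (log2 fold change -0.51, SE 0.065, limma adjusted p = 0.00584). It passed with each library left out in turn (adjusted p at most 0.0363 in limma).

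Of 30 other targets of ATF4 and CHOP, 2 fell and 1 rose. BBC3, the death protein PUMA, which p53 also induces, fell from 5.88 ± 0.391 FPKM in mock to 4.19 ± 0.142 FPKM in shHMGB2 (SD, n = 3), and VEGFA, an angiogenic factor, from 62.0 ± 6.26 FPKM in mock to 45.7 ± 4.39 FPKM in shHMGB2 (SD, n = 3; limma adjusted p = 0.0229 and 0.0412). VLDLR, which takes up lipoproteins, rose from 8.60 ± 1.18 FPKM in mock to 13.4 ± 0.955 FPKM in shHMGB2 (SD, n = 3; limma adjusted p = 0.0177). BBC3 did not pass without mock replicate 2 or any 1 shHMGB2 library, where the adjusted p in limma ran from 0.0772 to 0.103, VEGFA without any except mock replicate 1 (from 0.0566 to 0.139), and VLDLR without any 1 shHMGB2 library (from 0.0566 to 0.0793). The median of the list was 0.024.

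The list of aminoacyl-tRNA synthetases, known ATF4 targets, with the tRNA exporter XPOT had 0 of 16 tested genes past the threshold in limma. At an unadjusted p under 0.05, 3 were higher, beside 16.8% higher and 11.1% lower of all genes. IARS1 had the smallest p, with 54.5 ± 2.91 FPKM in mock and 63.7 ± 4.12 FPKM in shHMGB2 (SD, n = 3, limma adjusted p = 0.0963). The median log2 fold change of the list was 0.023. Of 15 cytosolic heat shock genes 1 fell, HSPBP1, a nucleotide exchange factor of HSP70, from 30.6 ± 3.05 FPKM in mock to 10.8 ± 0.144 FPKM in shHMGB2 (SD, n = 3; log2 fold change -1.41, limma adjusted p = 0.000317). Of 14 genes of the mitochondrial unfolded protein response 1 rose, OMA1, the protease that cleaves DELE1 to signal mitochondrial stress, from 8.42 ± 0.844 FPKM in mock to 11.9 ± 0.626 FPKM in shHMGB2 (SD, n = 3; log2 fold change 0.45, limma adjusted p = 0.0241). OMA1 did not pass without any 1 shHMGB2 library, where the adjusted p in limma ran from 0.0668 to 0.0974. With no filter on low values, EIF2AK2, VEGFA, VLDLR, BBC3 and OMA1 did not pass (limma adjusted p = 0.0668, 0.111, 0.0637, 0.0655 and 0.0693). VEGFA did not pass without the mean-variance trend (0.0534), nor ATF6B with numbered copies summed (0.0578).

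**Figure D5:**
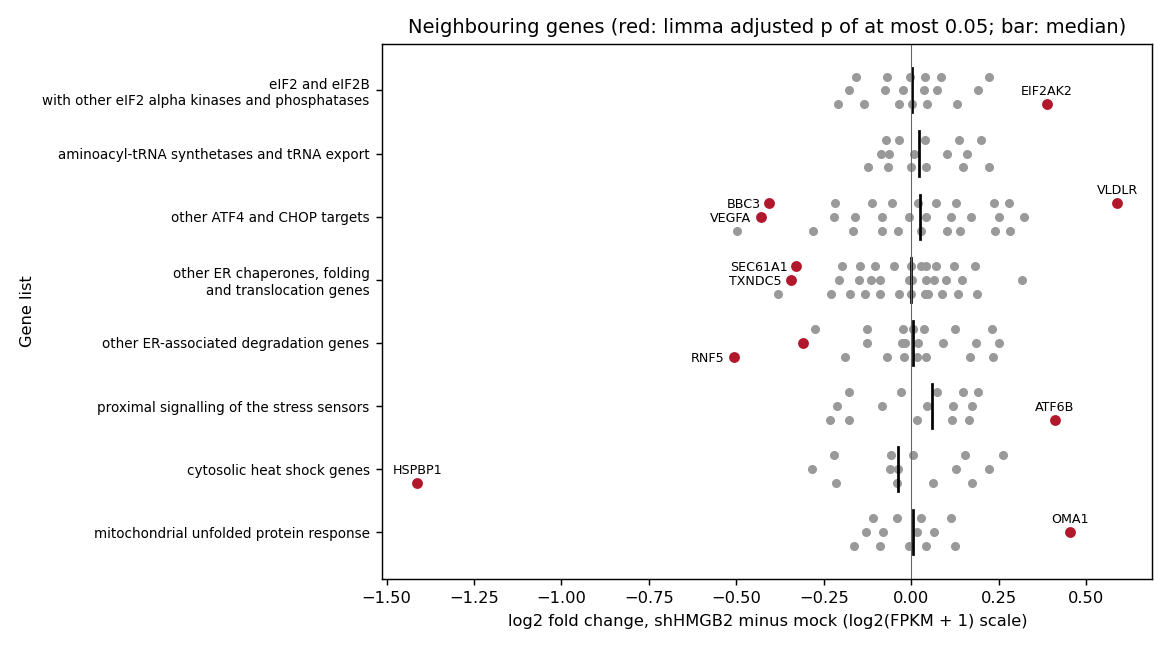
Points are the tested genes of 8 neighbouring lists at their log2 fold change (shHMGB2 minus mock); red genes passed a limma adjusted p of 0.05, those named in the text are labelled, and the vertical bar is the list's median. Medians lie between -0.037 and 0.059, and HSPBP1 at -1.41 stands alone at the left.

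In the authors' deposited table, whose test is not named in the sources used here, 10 of the 37 members were lower and 0 higher at an adjusted p under 0.05, beside 9.73% lower and 6.18% higher of the tested genes that have an adjusted p there. The 10 were the 3 that fell in limma and ATF3, DDIT3, ERN1, HERPUD1, SLC1A5, SLC38A2 and XBP1. The authors' deposited table gave log2 fold changes of -0.67 for PPP1R15A, -0.49 for DDIT3, -0.51 for ERN1 and -0.46 for CEBPB, with adjusted p of 1.89e-06, 0.00104, 0.0153 and 8.37e-06. None of the 37 carried the authors' mark for Up or Down in that table.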

How the data were processed

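Total RNA of the 6 libraries was taken up in Trizol and made into libraries with an mRNA kit, per the labels' protocols. The submitters' processing notes list Bowtie2 2.2.5, RSEM 1.2.12 and hg38, with no role given. Per the file headers, each library has an FPKM column, given by the authors to 2 decimals. The table also holds deposited group values, a normalized signal, and the deposited log2 fold change is the log2 of their ratio. Which test lies behind the deposited p-value and its adjusted form is not stated in any source used here.

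Values were fitted as log2(FPKM + 1) in limma 3.58.1 (R 4.3.3) on group alone, allowing the variance to follow the mean, and p-values were adjusted by Benjamini-Hochberg over 13409 rows averaging 1 FPKM or more. Fold changes on this scale understate those of low genes, and without counts per library no count test was run. In a simulation of shHMGB2 against mock over 13409 genes, 99 of 100 changes of 1 log2 unit and 68 of 100 of 0.5 were called. In it 7 unchanged genes were called falsely. Changes were planted only in genes with a mean above 5 FPKM on the log2 scale, and ERN1 (2.52 FPKM) lies below that. Noise was drawn independently for each gene, so deviations shared between genes of 1 library were not simulated. Only these changes were planted, while 905 genes were called in the data. The members also had a median within-group SD of 0.12 log2 units, against 0.098 over genes with at least 5 FPKM. Most of their changes were under 0.5, so 68 of 100 is not the share of member changes that would be called. All 37 members are named; from each wider list, the genes past the threshold, at most 5, or else the one with the smallest p; PPP1R15B, EIF2AK1, MBTPS1 and MBTPS2 were added after their values were seen. One gene of a wider list is not reported here. Members and lists were chosen with earlier results of these data known. Alternatives covered the pseudocount, the filter, scaling, variance model, threshold, a replicate block, summed copies of a row, the authors' table and each library left out. Promoters and gene positions are from RefSeq on GRCh38.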

Additional observations from a re-analysis of the deposited data

How the results depend on the processing

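The 3 lower members were the same genes under a pseudocount of 0.25, a mean of at least 5 FPKM, both scalings, robust moderation and summed copies. The count of lower members was 0 with no filter on low values, 1 without the mean-variance trend (CEBPB) and 5 at a threshold of 0.1. It was 0 at a threshold of 0.01 and 10 in the authors' deposited table. At an unadjusted p under 0.05 in limma, 8 members were lower with no filter. At the threshold of 0.01, which uses the main fit, 9 were lower at that p, beside 11.1% of all genes. The count of higher members was 1 at a threshold of 0.1 (CALR). With each library left out in turn the count of lower members ranged from 0 to 4, that of higher members from 0 to 1 and that of all genes from 288 to 868, against 905. Genes called in all numbered 412 with no filter, 2034 at a threshold of 0.1, 242 at 0.01 and 2087 in the authors' deposited table. Median-of-ratios scaling gave 349 higher and 571 lower genes, against 442 and 463, and the same 3 members. Counting SELENOS for VIMP, chosen after seeing the data, left 3 lower and 0 higher. The cause of these differences was not tested. With the replicate number as a block, 0 members and 372 genes in all passed the adjusted threshold in limma. At an unadjusted p under 0.05, 7 members were lower and 2 higher in that fit. The shares of all genes at that p are not given for the block or for the fit with no filter. Nothing is therefore read from the unadjusted counts of those fits. Deviations of same-numbered libraries from the group means correlated at -0.012, -0.038 and -0.096 for replicates 1, 2 and 3. Those of differently numbered libraries correlated at -0.050 to 0.094. Such values cannot tell whether the libraries were prepared in pairs. Of the 51 genes followed under each alternative (the members, SELENOS, HMGB2 and 12 neighbouring genes), 0 had a called value that changed sign. With 3 libraries a group, 8 of the 34 members that did not pass had a 95% interval within 0.25 log2 units of 0.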
